A study of Mus musculus with 24 samples.

Results

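The effect of irradiation was examined in mouse lungs that had all received the drug named Ly, so that irradiation was the labelled difference between the groups. The comparison used 4 of the 24 one-colour arrays of the series, chosen by their labels: 2 lungs irradiated and treated with Ly (IR+Ly) and 2 lungs treated with Ly alone (Ly), all taken at day 24 after irradiation. The series crossed irradiation with 6 drug arms, namely Ly, Imatinib, Su, the pairs Ly+Su and Ly+Imatinib, and none, which gave 12 groups of 2 biological replicates. Its title names inhibition of TGFβ and PDGF signaling in radiation-induced lung fibrosis as the subject. The IR+Ly group was therefore irradiated and given Ly, and the Ly group was given Ly without irradiation. For the arm without drug, the IR group was irradiated and the untreated group received neither. Labels give Ly and Su only in these short forms, and doses of drug or radiation, strain, sex and age are not given in the sources used here.

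Ionizing radiation breaks DNA, and the transcription factor p53 then switches on genes that stop the cell cycle, promote repair or start cell death. In the lung, later responses include recruitment and activation of macrophages, release of chemokines, and the laying down of collagen by fibroblasts, which is known to depend in part on TGFβ. TGFβ ligands act through the receptors Tgfbr1 and Tgfbr2 and raise the transcription of matrix genes. Values below are log2 intensities relative to the 75th percentile of each array, and differences are IR+Ly minus Ly unless another pair is named.

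Among the 4 arrays, 63.7% to 64.2% of spots with IR+Ly and 63.2% to 66.5% with Ly were well above background. With 2 arrays a group, array number sets how precise the values are. IR+Ly and IR arrays lay on slide 4 of the 6 slides, and Ly and untreated arrays on slide 1, so that slide and irradiation cannot be told apart in IR+Ly against Ly. The same pair of slides carried the no-drug arm, while the other 4 arms lay on other slides. Array Ly 1 stood apart in neutrophil genes and IR 1 from IR 2 in many (median gap 0.45), and values without these arrays are given where they move a result. Epithelial markers of lung were high on all 4 arrays, with a mean over 14 markers of alveolar type II cells of 3.85 and 4.14 in IR+Ly and 3.68 and 4.08 in Ly.

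Few genes passed the test in the Ly arm. Of 20409 genes tested, 9 (0.0441%) differed between IR+Ly and Ly at an adjusted p under 0.05 (limma over all 24 arrays, Benjamini-Hochberg), 4 (0.0196%) higher and 5 (0.0245%) lower. At an unadjusted p under 0.05 there were 1174 genes (5.75%), 711 higher (3.48%) and 463 lower (2.27%). The same fit called 2936 genes (14.4%) between IR and untreated lungs, and 566 (2.77%), 2115 (10.4%), 726 (3.56%) and 689 (3.38%) in the Imatinib, Su, Ly+Imatinib and Ly+Su arms. The median absolute difference over all genes was 0.15 in the Ly arm, against 0.35 without drug and 0.22 to 0.30 in the other arms. Replicates differed by a median of 0.22 in IR+Ly, 0.26 in Ly, 0.45 in IR and 0.21 in untreated lungs. The no-drug count was far smaller without IR 1, as given below with the genes that responded elsewhere. Spread was shared between all 12 groups: on the 4 arrays alone limma called 0 genes, with 904 at an unadjusted p under 0.05. With normexp background correction it also called 0, with 285 at an unadjusted p under 0.05.

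**Figure D1:**
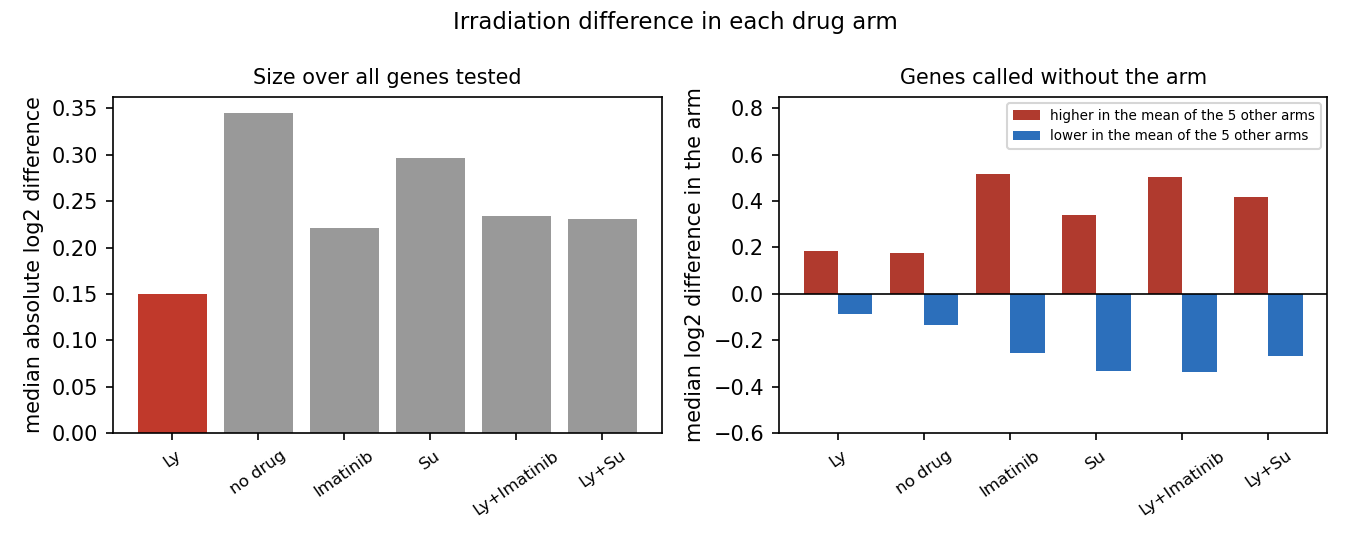
Irradiation difference in each of the 6 drug arms. Left, bars give the median absolute log2 difference over 20409 genes; the Ly arm is lowest at 0.15. Right, bars give each arm's median log2 difference over genes that passed the test in the mean of the 5 other arms, in red those higher and in blue those lower; the Ly arm is at 0.18 and -0.09.

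Cthrc1, a secreted protein of activated fibroblasts and wound repair, was higher in IR+Ly than in Ly lungs. Its level was -1.85 and -1.87 in IR+Ly lungs, against -2.76 and -3.52 in Ly lungs. The IR+Ly arrays lay close together and above both Ly arrays, a 2.43-fold difference (log2 1.28 ± 0.18 SE, n = 2 each; limma adjusted p = 0.0264). The difference was 0.90 without Ly 2 and 1.66 without Ly 1. Of 16 fibroblast markers tested, 9 were positive and 7 negative, with a median of 0.06, against 0.02 over all genes. Cthrc1 was the 1 of these that passed, and the lowest member, Pi16, was at -0.94. In the no-drug arm Cthrc1 rose by 1.25 ± 0.18 (adjusted p = 0.00354), and the difference between those 2 arms was 0.03 ± 0.26. Sh3gl3, an endophilin that binds curved membranes, was at -0.98 and -0.71 in IR+Ly and at -2.46 and -2.29 in Ly. It rose 2.89-fold (log2 1.53 ± 0.22; adjusted p = 0.0283), with 1.46 in the no-drug arm. Both genes had positive irradiation differences in all 6 arms and passed the test in 4 of them. Unirradiated lungs on slides 2 and 3 lay at -2.63 to -2.05 for Cthrc1 and -2.45 to -2.08 for Sh3gl3, below the 4 irradiated arrays of slide 4 in both. For Cthrc1 slide 1 was the low one, at -3.52 to -2.76, so IR+Ly lay nearer to the unirradiated lungs of slides 2 and 3 than to Ly. Of 14 alternative settings, the call was lost in 5 for Cthrc1 and in 7 for Sh3gl3. The transcript 9630013D21Rik, at -3.48 and -3.54 in IR+Ly and -4.83 and -4.72 in Ly, was the other named gene that passed (1.27 ± 0.20; adjusted p = 0.0468). Its call was lost in 9 of 14 settings, and unirradiated lungs on slide 3 lay at -3.66 to -3.48, level with IR+Ly.

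Hspb1, which encodes the small heat shock protein HSP27 and holds unfolded proteins in solution, was lower in IR+Ly than in Ly lungs. It stood at 3.73 and 3.73 in IR+Ly lungs, against 4.56 and 4.49 in Ly lungs. The 2 groups were far apart beside the spread within each, and the difference was -0.79 on the log2 scale, a ratio of 0.576 (SE 0.11; limma adjusted p = 0.0264). Its level also differed between slides: irradiated lungs were at 3.73 to 3.92 on slide 4, 2.75 to 3.46 on slide 5 and 2.86 to 3.14 on slide 6. Unirradiated lungs were at 4.37 to 4.56 on slide 1, 3.67 to 3.98 on slide 2 and 3.14 to 3.29 on slide 3. Slide 1 was thus the high one, and the IR+Ly arrays lay within or above the unirradiated arrays of slides 2 and 3. Hspb1 also passed as lower without drug (-0.51 ± 0.11; adjusted p = 0.0136), with Imatinib (-0.53) and with Su (-0.92), and was at -0.14 and -0.32 in the Ly+Imatinib and Ly+Su arms. The difference between the Ly and no-drug arms was -0.28 ± 0.16 and did not pass (adjusted p = 0.501). Cthrc1, Sh3gl3 and Hspb1 were above background on all 24 arrays. Hspb1 had an adjusted p of 0.0621 to 0.113 when any 1 of the 4 arrays was left out, with differences of -0.83 to -0.76.

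**Figure D2:**
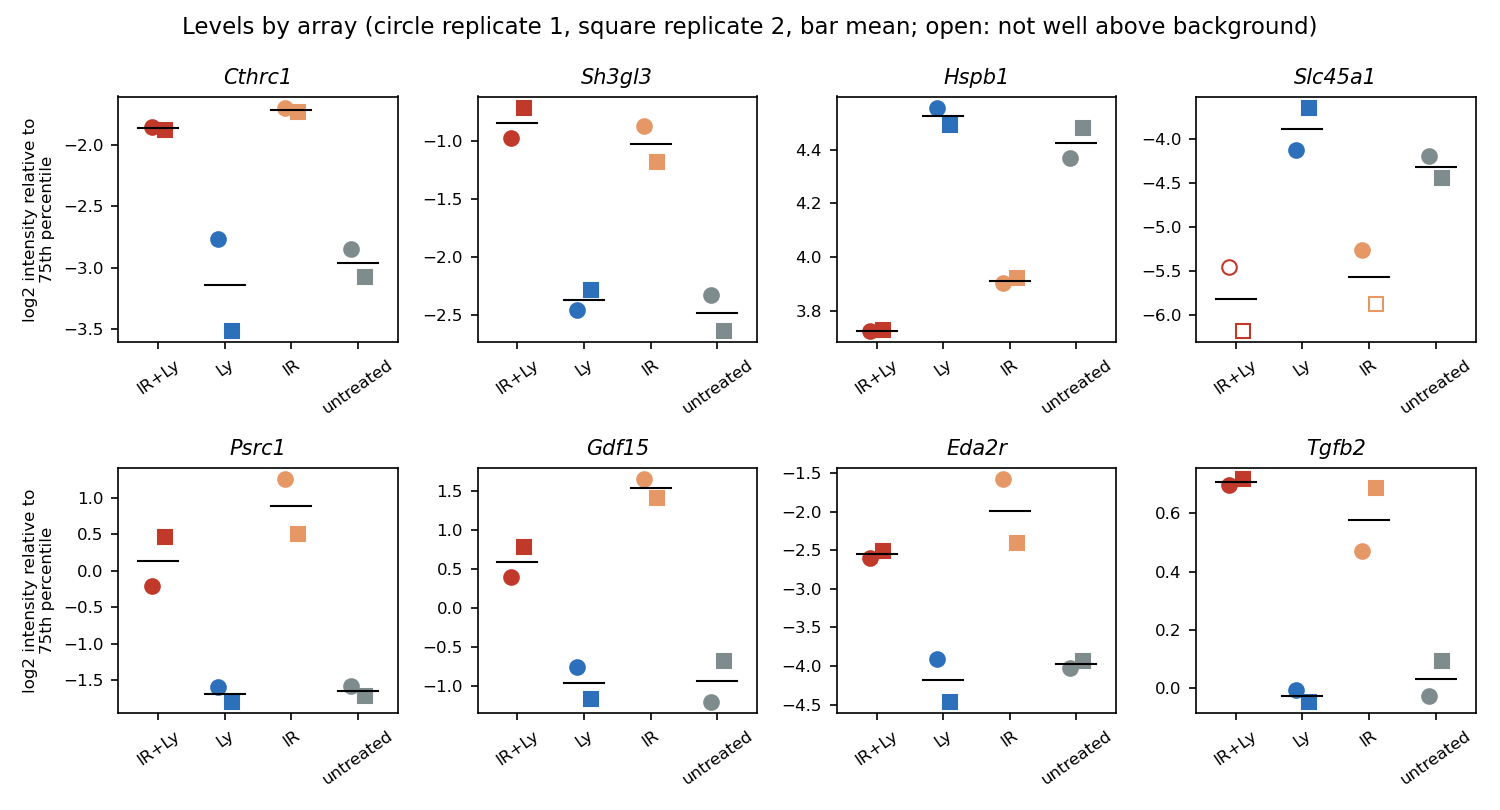
Log2 intensity relative to the 75th percentile on each array for 8 genes in IR+Ly, Ly, IR and untreated lungs (n = 2 each; bars are means, open symbols are not well above background). Both IR+Ly arrays lie above both Ly arrays for Cthrc1, Sh3gl3, Psrc1, Gdf15, Eda2r and Tgfb2, and below them for Hspb1 and Slc45a1.

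Of 15 heat shock chaperones tested, Hspb1 was the 1 that passed, against 0.0245% of all genes lower. The list had a median of -0.21, against 0.02 over all genes, and 12 of its 15 members were negative, against 47% of all genes. At an unadjusted p under 0.05, 6 were lower and 0 higher in limma, against 2.27% of all genes lower. Both IR+Ly arrays were below both Ly arrays in 10 of the 15, against 12.9% of all genes. Beside Hspb1, the members at an unadjusted p under 0.05 were Hsph1 (-0.57 ± 0.20) and Hspa4l (-0.46 ± 0.12), which help HSP70 release its client, and the HSP90 genes Hsp90ab1 (-0.46 ± 0.15) and Hsp90aa1 (-0.26 ± 0.10) with their activator Ahsa1 (-0.31 ± 0.09). For Hsph1 the levels were 3.75 and 3.61 in IR+Ly and 4.22 and 4.28 in Ly. None of these 5 passed after adjustment (adjusted p from 0.319 to 0.690). The slides differed here too: the irradiated arrays of slide 4 all lay above the unirradiated arrays of slide 3 for Hsph1 (3.50 to 3.89 on slide 4 and 2.72 to 3.01 on slide 3), Hspa4l, Ahsa1 and Hsp90aa1. The inducible HSP70 gene Hspa1a lay at -0.15 and the cochaperone Dnaja1 at 0.04. The list's median was -0.05 in the no-drug arm and -0.18 over the 5 other arms.

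Heat shock factor binds inverted repeats of the letters GAA, so the bases before the transcription start of these genes are shown, for the gene that passed and for list members that did not pass. Sequences are RefSeq promoters of GRCm38.p6, 250 bases up to the start, with each match to GAANNTTC in capitals; the motif is its own reverse complement, so both strands are covered. Hspb1 lies at chr5:135887669-135887918 on the plus strand, Hspa1a at chr17:34972157-34972406 on the minus strand and Dnaja1, at the first of its 3 listed starts, at chr4:40722218-40722467 on the plus strand.
Hspb1: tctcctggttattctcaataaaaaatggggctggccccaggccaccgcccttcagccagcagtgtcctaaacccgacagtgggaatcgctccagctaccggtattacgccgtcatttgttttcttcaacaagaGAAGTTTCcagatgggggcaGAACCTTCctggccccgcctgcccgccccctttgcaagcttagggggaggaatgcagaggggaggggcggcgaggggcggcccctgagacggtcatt
Hspa1a: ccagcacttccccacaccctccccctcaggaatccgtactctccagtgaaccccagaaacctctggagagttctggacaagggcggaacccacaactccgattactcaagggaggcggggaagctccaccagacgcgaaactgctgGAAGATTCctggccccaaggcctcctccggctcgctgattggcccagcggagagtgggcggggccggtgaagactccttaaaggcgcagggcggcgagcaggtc
Dnaja1: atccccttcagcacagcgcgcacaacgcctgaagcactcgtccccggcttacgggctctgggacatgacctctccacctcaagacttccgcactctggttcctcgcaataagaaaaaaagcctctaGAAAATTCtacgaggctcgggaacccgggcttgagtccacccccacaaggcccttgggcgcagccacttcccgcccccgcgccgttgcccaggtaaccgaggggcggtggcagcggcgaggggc
Promoters were read for 11 of the 15 members. At any listed start, 5 of these held the motif (Hspb1, Hspa1a, Dnaja1, Hspd1 and Hspe1, the last pair with overlapping windows). Of 32851 promoters in the table, 6.69% held it. That share counts promoters while the 5 are genes, some with several starts, so the 2 are not on the same scale. By gene, 803 tested genes held the motif and 11849 did not. Hspb1 held 2 matches. The other orientation of the repeat, TTCNNGAA, was in 7.17% of promoters and in those of Hsph1, Hspd1 and Hspe1. Hspd1 and Hspe1 lay at -0.19 and -0.22, and neither passed. The motif was thus present in members with and without a called difference, and Hspa4l and Ahsa1 had no match to either orientation in this window.

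Slc45a1, a sugar transporter, and Mc4r, the melanocortin receptor that limits food intake through the brain, were low-level signals in lung. Both were well above background on the 2 Ly arrays and on neither IR+Ly array, so only a bound of the fold can be given (bright group mean against the lowest level marked above background on each dim array). Slc45a1 was at least 2.68-fold lower in IR+Ly (adjusted p = 0.0264) and Mc4r at least 2.74-fold lower (adjusted p = 0.04996). The measured levels of Slc45a1 were -5.45 and -6.18 in IR+Ly and -4.13 and -3.65 in Ly, and those of Mc4r -5.84 and -6.33 in IR+Ly and -4.03 and -3.69 in Ly. Untreated lungs, on the same slide as Ly, were also above background for both genes, while IR lungs, on the slide of IR+Ly, were above it on 1 of 2 arrays. With normexp background correction Slc45a1 lay at 0.01 and Mc4r at -0.12. Each gene had a positive irradiation difference in 3 of 6 arms. With Ly+Imatinib, Mc4r lay at 2.20 and Slc45a1 at 1.38 (limma adjusted p = 0.00575 and 0.0173). Without drug they lay at -1.60 and -1.24. Unirradiated lungs of slide 3 lay at -7.31 to -6.02 for Mc4r, none above background, and at -5.69 to -3.56 for Slc45a1. On slide 2 they lay at -5.30 to -4.79 and -5.81 to -5.17. Irradiated lungs of slides 5 and 6 were all above background for both genes. The other 3 called features carry no gene symbol and were named after their values were seen. AK047440 and ENSMUST00000076729 (limma adjusted p = 0.0264 and 0.0128) were above background on the 2 Ly arrays and on no other array of the 24. They entered the test only through the group where they were high. Their calls therefore give no support for a difference, and no fold is given. NAP059351-1 was not well above background on any of the 4 arrays, and no fold is given.

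Targets of p53 were mostly higher in IR+Ly lungs, though none of 28 passed after adjustment over all genes in limma. Their median difference was 0.26, against 0.02 over all genes, and 22 of 28 were positive, against 53% of all genes. At an unadjusted p under 0.05, 8 were higher and 0 lower, against 3.48% of all genes higher. Both IR+Ly arrays were above both Ly arrays in 13 of the 28, against 16.3% of all genes, and below them in 0. Psrc1, a microtubule-binding protein of dividing cells, stood at -0.21 and 0.46 in IR+Ly, against -1.59 and -1.80 in Ly (1.83 ± 0.32; adjusted p = 0.0863). Gdf15, a stress cytokine, stood at 0.40 and 0.79 in IR+Ly, against -0.76 and -1.16 in Ly (1.56 ± 0.30; adjusted p = 0.127). Eda2r, a receptor of the TNF family, stood at -2.60 and -2.51 in IR+Ly, against -3.91 and -4.47 in Ly (1.64 ± 0.33; adjusted p = 0.185). In all 3 genes both IR+Ly arrays were above both Ly arrays.

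Cdkn1a, the cell cycle inhibitor p21, showed more spread between the irradiated lungs. It was at 1.59 and 2.41 in IR+Ly and at 0.97 and 1.07 in Ly, a difference of 0.98 ± 0.35 (adjusted p = 0.653). Zmat3, which binds RNA, Phlda3, an inhibitor of Akt, the exonuclease Aen and the cell death protein Bax lay at 0.72, 0.58, 0.41 and 0.35. The median of the p53 list was 0.49 in the no-drug arm and 0.18 over the 5 other arms. The interaction median (Ly arm minus no-drug arm) was -0.26 with 24 of 28 negative, and -0.02 with 14 of 28 negative without IR 1. In the no-drug arm Psrc1, Gdf15, Eda2r and Cdkn1a rose by 2.53, 2.48, 1.99 and 1.54 (adjusted p from 0.00148 to 0.0157). The difference between the Ly arm and the no-drug arm was -0.71 ± 0.45 for Psrc1, -0.92 ± 0.42 for Gdf15, -0.35 ± 0.47 for Eda2r and -0.56 ± 0.49 for Cdkn1a, and none passed after adjustment (adjusted p from 0.449 to 0.761). Psrc1, Gdf15 and Eda2r had positive differences in all 6 arms.

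Matrix genes had positive medians, and none passed in limma but Cthrc1. Of 22 basement membrane genes, 22 were positive, against 53% of all genes, with a median of 0.38; 4 were higher and 0 lower at an unadjusted p under 0.05, against 3.48% of all genes higher. Col18a1, the source of endostatin, was at 2.94 and 3.42 in IR+Ly and at 2.46 and 2.46 in Ly (0.72 ± 0.22). Col4a1 and Col4a3, chains of network-forming collagen, and the laminin gene Lama2 lay at 0.60, 0.50 and 0.45. The median of this list was 0.38 in the no-drug arm and 0.37 over the 5 other arms. Without Ly 1, 18 of the 22 members were positive, and without IR+Ly 1, 19.

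Fibrillar collagens had a median of 0.66 over 10 genes, with 8 positive, against 53% of all genes. At an unadjusted p under 0.05 in limma, 2 of the fibrillar collagens were higher, against 3.48% of all genes. Their interaction median was -0.46, and -0.17 without IR 1. Col1a1, the main chain of type I collagen, was at 4.38 and 4.31 in IR+Ly and at 3.33 and 3.57 in Ly (0.89 ± 0.39; adjusted p = 0.803), and Col3a1 at 4.83 and 4.53 in IR+Ly and 3.99 and 3.91 in Ly (0.73 ± 0.37; adjusted p = 0.872). Their arrays did not overlap between the groups, which held for 29.2% of all genes. In the no-drug arm both rose by 1.49 (adjusted p = 0.0244 and 0.0212), and the differences between the arms were -0.60 ± 0.54 and -0.76 ± 0.52. Tnc, tenascin C of injured tissue, was at -1.24 and -0.42 in IR+Ly and -2.44 and -2.93 in Ly (1.86 ± 0.62; adjusted p = 0.573). The matricellular protein Thbs2, the microfibril protein Mfap5 and Ltbp2, a fibrillin-binding protein, lay at 1.27, 1.05 and 0.80. The 30 matricellular and elastic fibre genes had a median of 0.28, with 20 positive and 10 negative, against 53% of all genes positive. Their lowest member was at -1.67. In limma, 5 were higher and 0 lower at an unadjusted p under 0.05, against 3.48% of all genes higher. Fibronectin, Fn1, was at 1.55 and 2.64 in IR+Ly and 1.68 and 1.75 in Ly, so the groups overlapped (0.38 ± 0.37), and it was at -0.17 without IR+Ly 2. Loxl1, which crosslinks elastin, lay at 0.80 ± 0.25. The 22 collagen processing enzymes tested had a median of 0.18, with 14 positive and 8 negative. In limma, 3 were higher and 2 lower at an unadjusted p under 0.05, against 3.48% and 2.27% of all genes.

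Among TGFβ ligands, receptors and activators, 11 of 21 genes were positive, against 53% of all genes. At an unadjusted p under 0.05, 3 were higher and 2 lower, against 3.48% and 2.27% of all genes, and none passed in limma. Tgfb2 came nearest: it was at 0.70 and 0.72 in IR+Ly and -0.01 and -0.05 in Ly, with no overlap and little spread (0.73 ± 0.13; adjusted p = 0.104). It passed as higher by 0.55 without drug (adjusted p = 0.021). Irradiated lungs lay at 0.47 to 0.72 on slide 4, and unirradiated lungs at -0.05 to 0.09 on slide 1, 0.09 to 0.74 on slide 2 and 0.33 to 0.66 on slide 3, so slides 2 and 3 reached the range of slide 4. Tgfb1 was at -0.19 ± 0.19, with levels of 0.15 and 0.28 in IR+Ly and 0.46 and 0.35 in Ly. The signalling receptors Tgfbr1 and Tgfbr2 lay at 0.12 ± 0.19 and 0.35 ± 0.14, with Tgfbr2 at 4.79 and 4.85 in IR+Ly and 4.44 and 4.51 in Ly; a second Tgfbr2 probe above background gave -0.42. The coreceptor Tgfbr3 lay at -0.47 ± 0.19, and Itgb8, an integrin that frees TGFβ from its latent form, at 0.83 ± 0.26. Genes known to respond to TGFβ had a median of 0.20 over 29 members, against 0.36 without drug. Of these 29, 24 were positive, against 53% of all genes.

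The PDGF receptors Pdgfra and Pdgfrb lay at 0.11 ± 0.29 and 0.12 ± 0.14, with overlapping groups for Pdgfra. Acta2, smooth muscle actin of myofibroblasts, was at 4.76 and 5.11 in IR+Ly and 4.40 and 4.81 in Ly (0.33 ± 0.24), and its other probes above background gave -0.20, 0.90 and 1.12. Rgs5, a pericyte regulator of G proteins, was at -1.68 and -0.51 in IR+Ly and -2.59 and -2.75 in Ly (1.57 ± 0.52; adjusted p = 0.562), and a second probe gave 1.90. The 16 smooth muscle and myofibroblast genes had a median of 0.29, against -0.31 in the no-drug arm, with 14 positive, against 53% of all genes. In the difference between the arms 4 of these 16 were higher at an unadjusted p under 0.05, against 6.16% of all genes, and 0 were without IR 1, where 741 of all genes were higher.

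Macrophage, chemokine and acute phase genes had medians between -0.12 and 0.20 in IR+Ly against Ly lungs. Of 19 macrophage and monocyte markers 10 were positive, against 53% of all genes, and 0 were at an unadjusted p under 0.05 (0 adjusted, limma). Their median was 0.04, against 1.31 in the no-drug arm and 0.45 over the 5 other arms. The interaction median was -1.03, and -0.71 without IR 1. The mean of the list was 0.81 and 1.35 in IR+Ly, 1.06 and 1.06 in Ly, 1.66 and 1.34 in IR, and 0.51 and 0.56 in untreated lungs. The Ly arrays, which were not irradiated, thus lay between the IR and the untreated arrays. In bulk tissue, fewer cells of a type and less RNA per cell cannot be told apart. Spp1, the secreted protein osteopontin, was at 4.30 and 4.41 in IR+Ly and 4.62 and 4.24 in Ly (-0.08 ± 0.27), while IR lungs stood at 7.21 and 6.67 and untreated lungs at 4.80 and 4.58. Mmp12, the macrophage elastase, was at -3.64 and -3.15 in IR+Ly, -4.05 and -3.68 in Ly, -1.43 and -1.19 in IR and -4.79 and -5.87 in untreated lungs, the last above background on 1 of 2 arrays. The irradiation difference was 2.25 for Spp1 and 4.02 for Mmp12 without drug. In the Imatinib, Su, Ly+Imatinib and Ly+Su arms it ran from -0.87 to 0.07 for Spp1 and from 0.11 to 1.68 for Mmp12. A smaller difference than without drug was thus not limited to the Ly arm, and was also seen in arms without Ly.

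The difference between the Ly arm and the no-drug arm was tested as an interaction, in which both sides run from slide 1 to slide 4. One feature passed, AK034336 (0.0049% of 20409), named after its value was seen. It was above background on the 2 IR arrays and on no other of the 24. It entered the test only through that group, so its call gives no support for a difference between the arms. At an unadjusted p under 0.05 there were 2241 genes (11%), 984 lower (4.82%) and 1257 higher (6.16%). The 10 genes with a symbol and the smallest p were Spp1, Mmp12, Ly6g5c, Cxcl1, Kcne3, Aif1, Sectm1b, Orm2, Zranb3 and Gpnmb, all with a negative interaction and adjusted p from 0.182 to 0.241. For Spp1 it was -2.33 ± 0.38 and for Mmp12 -3.55 ± 0.60 (adjusted p = 0.182 for both), so neither passed. Without IR 1 these were -2.06 and -3.67 (adjusted p = 0.166 and 0.152), and without IR 2 -2.60 and -3.44 (adjusted p = 0.00186 and 0.00561). The count of calls moved with single arrays: it was 4382 without IR 2, 4 without IR 1, 12 without untreated 1 and 12 without untreated 2, 11 without Ly 1, 2 without Ly 2, 8 without IR+Ly 2 and 0 without IR+Ly 1 (1755 at an unadjusted p under 0.05, limma).

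Of 22 lipid-handling macrophage genes, whose products take up and clear lipid, all 22 had a negative interaction, with a median of -1.09, and 16 were lower at an unadjusted p under 0.05, against 4.82% of all genes. Without IR 1 the median was -0.90, and without IR+Ly 1 it was -0.76. Gpnmb, a membrane glycoprotein of these cells, was at -1.55 and -0.23 in IR+Ly and -1.73 and -1.77 in Ly (0.86 ± 0.33; adjusted p = 0.696), against 3.08 in the no-drug arm. Trem2, their lipid receptor, was at -0.90 and 0.48 in IR+Ly and -0.96 and -0.98 in Ly (0.76 ± 0.36; adjusted p = 0.869), against 2.78. On IR+Ly 2 both were above the Ly arrays, while IR+Ly 1 lay beside the Ly arrays. In the Imatinib and Su arms, which had no Ly, Gpnmb lay at 1.04 and 0.55 and Trem2 at 0.67 and 0.30. With Ly+Imatinib and Ly+Su, Gpnmb lay at 1.23 and 0.93 and Trem2 at 1.38 and 0.40. All were below the no-drug arm. Ms4a7 and Cd63, membrane proteins of these cells, lay at 0.96 ± 0.39 and 0.42 ± 0.13, and Ms4a7 was the highest member. In IR+Ly against Ly, 14 of the 22 members were positive and 8 negative. Their median was 0.20 and the lowest member was at -0.60. In limma 3 were higher and 0 lower at an unadjusted p under 0.05, against 3.48% and 2.27% of all genes.

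**Figure D3:**
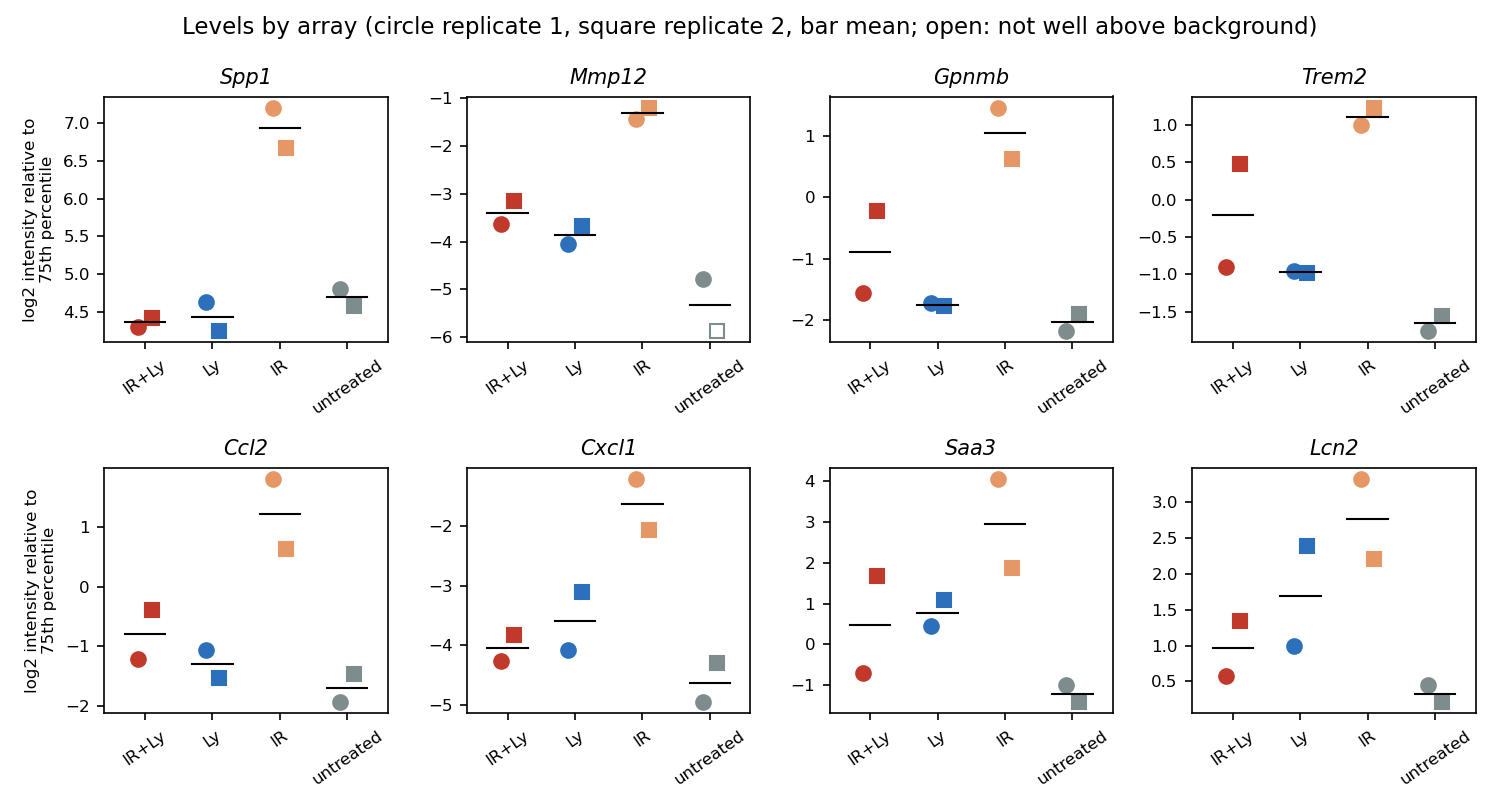
Log2 intensity relative to the 75th percentile on each array for macrophage genes (Spp1, Mmp12, Gpnmb, Trem2), chemokines (Ccl2, Cxcl1) and acute phase genes (Saa3, Lcn2) in IR+Ly, Ly, IR and untreated lungs (n = 2 each; bars are means, open symbols are not well above background). For Spp1, Ccl2, Cxcl1, Saa3 and Lcn2 at least 1 IR+Ly array lies at or below a Ly array, while both IR arrays lie above both untreated arrays for each gene.

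The 20 CC chemokines and receptors had a median of -0.12 in the Ly arm, against 0.98 without drug, and an interaction median of -1.21 with 9 lower at an unadjusted p under 0.05, against 4.82% of all genes (without IR 1, -0.86 with 6 lower, where 524 of all genes were lower). Ccl2, which draws monocytes, was at -1.22 and -0.39 in IR+Ly and -1.07 and -1.53 in Ly (0.50 ± 0.47), against 2.93 without drug. It lay at 0.45 with Imatinib, -0.02 with Su, 1.59 with Ly+Imatinib and -0.14 with Ly+Su. Ccl8, another monocyte attractant, was at 0.86 and 1.82 in IR+Ly and -0.86 and 0.41 in Ly (1.57 ± 0.76; adjusted p = 0.869). It was the highest of the 20 members in the Ly arm. Of these, 7 were positive and 13 negative, with the lowest at -0.92. In the Ly arm 0 were at an unadjusted p under 0.05 in limma. Cxcl1, a neutrophil attractant, was at -4.26 and -3.82 in IR+Ly and -4.07 and -3.10 in Ly (-0.45 ± 0.47), against 3.0 without drug.

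Acute phase genes had a median of 0.02 over 26 members, against 1.5 without drug, and the 4 at an unadjusted p under 0.05 were higher, against 3.48% of all genes. The interaction median was -1.18, and -0.69 without IR 1. Saa3, a serum amyloid protein, was at -0.70 and 1.66 in IR+Ly and 0.45 and 1.09 in Ly, so the groups overlapped. Lcn2, which binds bacterial iron carriers, was at 0.58 and 1.34 in IR+Ly and 1.00 and 2.39 in Ly (-0.73 ± 0.52), against 2.44 without drug. Fgg, a fibrinogen chain, lay at 1.74 ± 0.67 and Ptx3, a pattern recognition protein, at 1.57 ± 0.50 (adjusted p = 0.696 and 0.539). Of 9 mast cell genes tested, 5 were positive, against 53% of all genes. Their median was 0.97, and 0 were at an unadjusted p under 0.05 in limma. Cpa3, a mast cell protease, was at -3.20 and -2.82 in IR+Ly and -3.94 and -4.45 in Ly (1.18 ± 0.98). In the no-drug arm IR 1 was at 1.99 and IR 2 at -1.24, and neither untreated array was above background.

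Proliferation genes were positive in 27 of 34 cases, against 53% of all genes, with a median of 0.44, against 0.83 without drug. In limma 0 passed and 1 was higher at an unadjusted p under 0.05, against 3.48% of all genes. The interaction median was -0.46 with 33 of 34 negative, and 0.18 with 9 of 34 negative without IR 1, which stood at a list mean of -0.79 against -2.05 on IR 2. Mki67, a marker of cycling cells, was at 0.33 and 0.05 in IR+Ly and -0.18 and -0.33 in Ly (0.44 ± 0.39). The mitotic kinase Cdk1 was at -2.40 and -2.18 in IR+Ly and -3.68 and -2.77 in Ly (0.94 ± 0.49; adjusted p = 0.892). Dlk1, an imprinted growth regulator, was above background on both IR+Ly arrays and on neither Ly array, at least 1.83-fold higher (adjusted p = 0.429). It was above background on every irradiated array of slides 4, 5 and 6, and on 0 arrays of slides 1, 2 and 3. It entered the test only through irradiated groups. Its difference was positive in all 6 arms, but each unirradiated side was background signal. That shared sign thus gives no size and adds nothing to the split in detection.

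**Figure D4:**
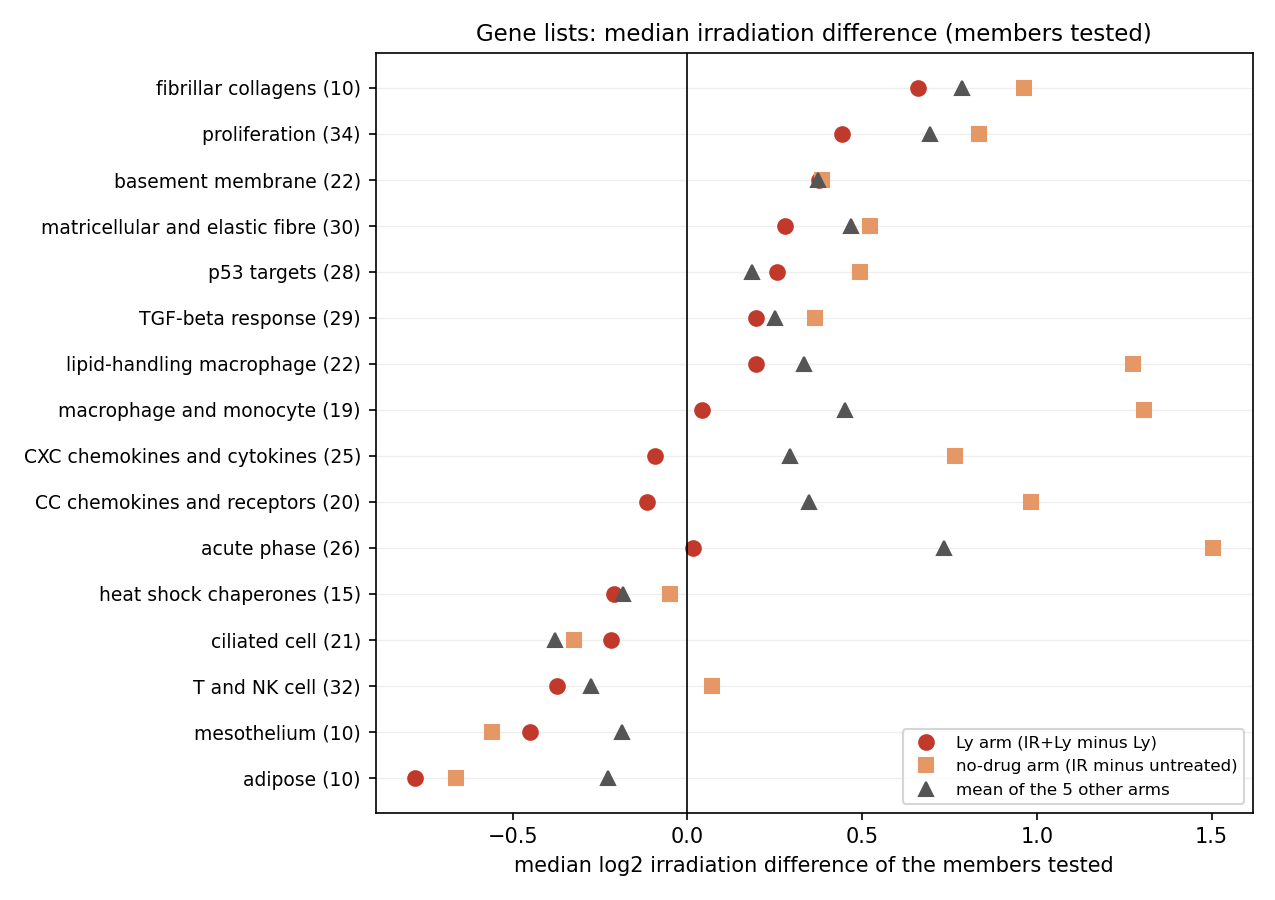
Median log2 irradiation difference of 16 gene lists in the Ly arm (red circles), the no-drug arm (orange squares) and the mean of the 5 other arms (grey triangles); the number of members tested is in brackets. Matrix, proliferation and p53 lists are positive in all 3, while macrophage, chemokine and acute phase lists lie between -0.12 and 0.20 in the Ly arm and between 0.77 and 1.5 in the no-drug arm.

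Markers of several other cell types were lower on the IR+Ly than on the Ly arrays. All 10 mesothelial markers were negative, with a median of -0.45, and 4 were lower at an unadjusted p under 0.05, against 2.27% of all genes; none passed in limma. Cldn15, a tight junction claudin, was at 0.03 and -0.27 in IR+Ly and 0.57 and 0.55 in Ly (-0.68 ± 0.14; adjusted p = 0.204). Upk3b and Muc16, surface proteins of mesothelium, lay at -0.74 ± 0.21 and -0.99 ± 0.33, and Wt1, its transcription factor, at -0.76 ± 0.23. Without IR+Ly 2 the list had 7 of 10 negative and a median of -0.34. Without drug its median was -0.56. Adipose markers were negative in 10 of 10 cases (median -0.78), with Cidec, a lipid droplet protein, at -0.55 ± 0.18. T and NK cell markers were negative in 29 of 32 cases with a median of -0.37, against 47% of all genes negative, and 19 of 32 were lower on both IR+Ly arrays, against 12.9%. At an unadjusted p under 0.05, 1 of 32 was lower, against 2.27%: Tbx21, a transcription factor of T and NK cells, at -0.83 ± 0.38 (adjusted p = 0.853). The mean of the T and NK cell list was -1.86 and -2.09 in IR+Ly, against -1.49 and -1.62 in Ly. It was -1.91 and -2.06 in IR and -1.96 and -1.93 in untreated lungs. The Ly arrays were thus the high ones, and IR+Ly lay level with IR and untreated lungs. The median difference of this list was 0.07 in the no-drug arm and -0.28 over the other arms. How much of any other difference went with the markers of these cell types was not tested.

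Neutrophil genes rested on 1 array. Their list mean was 0.14 and -0.57 in IR+Ly, against 2.82 on Ly 1 and -0.86 on Ly 2. S100a8, a calcium-binding protein abundant in neutrophils, was at 2.52 and 1.06 in IR+Ly and at 5.45 and 1.55 in Ly. Retnlg, another neutrophil gene, was at 0.14 and -1.36 in IR+Ly and 3.36 and -0.47 in Ly. The median of the 12 genes was -1.28, and 0.13 without Ly 1. Leaving out Ly 1 also changed the number of genes called in IR+Ly against Ly to 26, of which 4 were among the 9 called with all arrays.

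**Figure D5:**
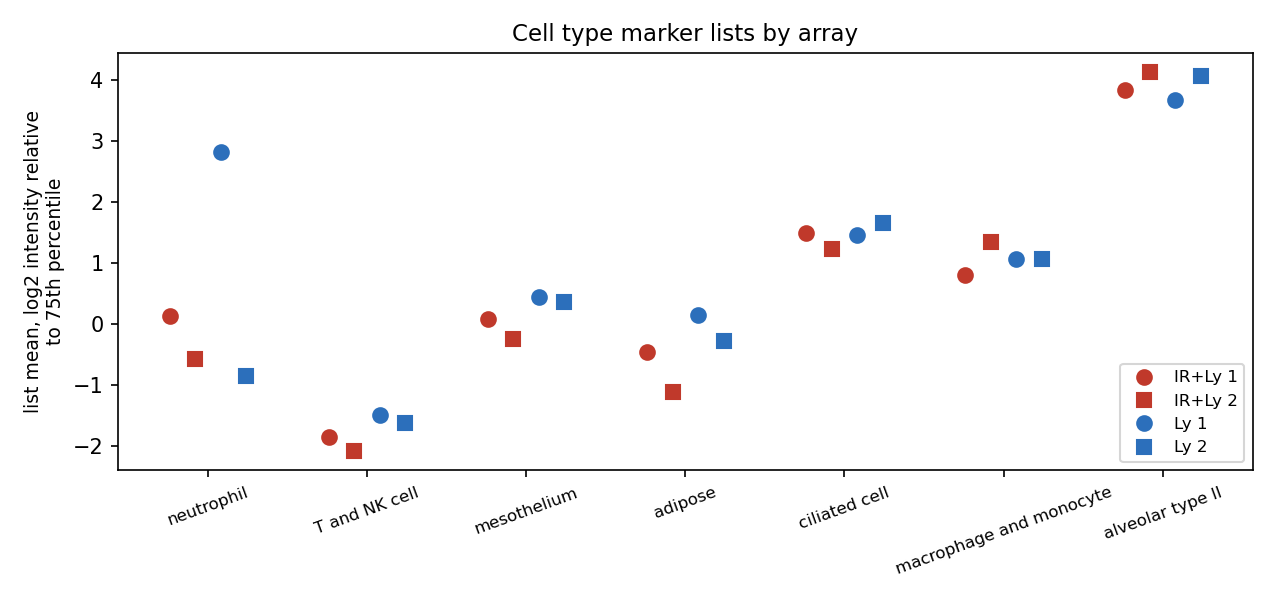
Mean log2 intensity relative to the 75th percentile of 7 marker lists on the 2 IR+Ly and 2 Ly arrays. Ly 1 is at 2.82 for neutrophil genes, above the other 3 arrays, and both IR+Ly arrays are below both Ly arrays for T and NK cell, mesothelial and adipose markers.

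Genes that responded to irradiation elsewhere mostly had the same sign in the Ly arm. Of 3414 genes higher in the mean of the 5 other arms (16.7% of those tested), 74.99% were positive in the Ly arm, against 53% of all genes. Their median was 0.18 against 0.53. Of 3539 lower genes (17.3%), 74.7% were negative, against 47% of all genes. Their median was -0.09 against -0.30. When each other arm was left out in the same way, its medians were 0.18 to 0.52 for the higher and -0.33 to -0.13 for the lower genes. Its shares with the same sign were 62.8% to 94.3% and 67.9% to 96.9%. The smallest value in size of each range belonged to the no-drug arm, which shares slides 1 and 4 with the Ly arm. Slide cannot be told apart from arm there. Among the 1449 genes higher in IR than in untreated lungs (7.1%) and the 1487 lower (7.29%), 86.8% and 81.1% had the same sign in the Ly arm, against 64.9% of all genes, with medians of 0.25 and -0.17, against 0.93 and -0.83 in the no-drug arm. Without IR 1 the sets held 111 and 55 genes, of which 83.8% and 76.4% had the same sign. In these smaller sets the medians in the Ly arm were 0.45 and -0.18. No array is shared between the Ly arm and the other arms. Each set was chosen on the values of the arms set beside the Ly arm, so the medians of those arms are raised in size by the choice. How much smaller the Ly arm is cannot be read from them. The Ly and no-drug arms both run from slide 1 to slide 4, so a shared sign cannot be told apart from slide.

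Set against the mean of the 5 other arms, 37 genes passed (0.181%), all 37 with a lower difference in the Ly arm, and 1761 (8.63%) were at an unadjusted p under 0.05. The 10 with a symbol and the smallest p were Cep20, Tnfsf12, Slc45a1, 4930544G11Rik, Mc4r, Olfr1093, Hacl1, Rab27a, D030028A08Rik and Krt87. Cep20, a centriole protein, had a fitted value of -1.93 ± 0.21 (adjusted p = 0.002), but was above background on all 8 arrays of slides 5 and 6 and on none of the other 16. Tnfsf12, the cytokine TWEAK, and Hacl1, a peroxisomal lyase, were above background on 6 and 7 arrays of those slides and on no others. Slides 5 and 6 hold the irradiated lungs of 4 other arms and none of the Ly arm, so slide and arm cannot be told apart for these genes. The no-drug arm, on the slides of the Ly arm, was near it: the irradiation difference was 0.10 in the Ly arm and -0.22 without drug for Cep20, and 0.19 and 0.17 for Hacl1. Rab27a, a regulator of granule secretion above background on all 24 arrays, was at 0.68 and 0.75 in IR+Ly and 1.20 and 0.55 in Ly, a difference of -0.16 against a mean of 1.03 in the other arms (-1.19 ± 0.20; adjusted p = 0.0253). That mean comes from Su (2.14) and Ly+Su (2.44), while no drug, Imatinib and Ly+Imatinib were at 0.16, 0.08 and 0.34. Its low levels elsewhere, down to -1.91, lay on slides 2 and 3, which hold unirradiated lungs.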

How the data were processed

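Lung RNA was labelled with Cy3 after linear amplification and hybridised to one-colour Agilent arrays, per the labels' protocols, and the deposited array files hold spot intensities from Agilent Feature Extraction 9.1.3.1, per the file headers. The processed intensity per spot, with spatial and multiplicative detrending switched on per the file headers, was taken as log2 minus each array's 75th percentile over 43379 non-control spots. A deposited series table of intensities, which stood in a ratio of 0.995 to 1.005 to the array files after its constant scale was removed, served as an alternative. Control spots (1639) and 619 of 41174 probes with an outlier flag were left out. Of the 40555 kept, 22550 were named by accession, 6572 by symbol and 3068 by synonym through a RefSeq gene table, and 8365 kept the file's name.

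One probe per gene was used, and a gene was tested when well above background on both arrays of at least 1 group, which left 20409 of 27401 genes. limma 3.58.1 (R 4.3.3) fitted 1 mean for each of 12 groups over 24 arrays (residual df 12, prior df 2.08), with Benjamini-Hochberg adjustment over all genes at 0.05, two-sided. The method was tested on simulated data. The series' design text calls the samples biological replicates. Deviations of arrays sharing a number correlated at 0.18 over 2 pairs, which was not taken as pairing. Per the labels, 1 title and source name disagreed on a replicate number, and the title was used.

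Named genes were those past the threshold with a symbol and no overlap between groups (up to 15 each way), the 10 smallest p of both further comparisons, members of 49 gene lists, and a fixed set of 19 genes. The comparison, lists and genes were chosen with earlier results of these data known. Alternatives were quantile normalization, normexp, other scaling and filters, every probe, the deposited table, fewer arrays, a replicate block and each array left out.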

Additional observations from a re-analysis of the deposited data

Results flagged for a closer look

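The irradiation difference in the Ly arm differed from that in the no-drug arm, by the interaction test, for the feature AK034336, with a fitted value of -3.15 on the log2 scale (limma adjusted p = 0.00911). It was above background only on the 2 IR arrays, so the value rests on background signal in the other 3 groups and gives no size. It entered the test only through the IR group, so the call gives no support for a difference.

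Against the mean of the 5 other arms, the difference in the Ly arm was lower in the same kind of test for 10 named genes. The fitted values were -1.93 for Cep20, -1.91 for Tnfsf12, -2.23 for Slc45a1, -2.0 for 4930544G11Rik and -2.71 for Mc4r. For the rest they were -2.18 for Olfr1093, -1.69 for Hacl1, -1.19 for Rab27a, -1.22 for D030028A08Rik and -2.71 for Krt87. Their adjusted p ran from 0.002 to 0.0389 in limma. Cep20, Tnfsf12 and Hacl1 were above background only on slides 5 and 6, which hold no array of the Ly arm; for these, for Slc45a1, Mc4r, Olfr1093 and Krt87, which were not above background in IR+Ly, and for 4930544G11Rik, which was not in Ly, the fitted value gives no size. In the no-drug arm, on the slides of the Ly arm, the irradiation difference lay near that of the Ly arm for Cep20 (0.10 in the Ly arm, -0.22 without drug), Slc45a1 (-1.92 and -1.24), Mc4r (-2.23 and -1.60), Olfr1093 (-1.81 and -1.19), Hacl1 (0.19 and 0.17) and 4930544G11Rik (0.54 and 0.46). For Rab27a and D030028A08Rik the Su arm (2.14 and 2.01) and the Ly+Su arm (2.44 and 2.53) stood above the other arms. No array of the series was tested for standing apart within its group, since each group has 2.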

How the results depend on the processing

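The count of genes called in IR+Ly against Ly (9), in the interaction (1) and against the other arms (37) moved with several choices. With normexp the 3 counts were 0, 0 and 0 (limma; 285, 6133 and 865 at an unadjusted p under 0.05), and the median of all genes in IR+Ly against Ly was 0.14, against 0.02. Without a background filter the first count was 1; with genes above background on all 24 arrays the counts were 4, 0 and 18 (1848 unadjusted for the interaction); on the compared arrays alone the first 2 were 0 and 0 (904 and 766 unadjusted). Quantile normalization gave 2 for the interaction. Without IR 1 and IR+Ly+Imatinib 1 they were 20, 7 and 69. Leaving out 1 array gave 7 to 26, 0 to 4382 and 14 to 92. The replicate block gave 8, 1 and 37, and changed no count by over 1.5 times. Slide as a random block could not be fitted, because each slide holds 2 whole groups.

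With normexp the sign turned for differences in the Ly arm of Slc45a1 (0.0054), Tgfbr3 (0.14), Cxcl1 (0.23), Wt1 (0.033) and Saa2 (0.37), for the interaction of Ly6g5c (1.36), Sectm1b (1.15) and AK034336 (1.48), and against the other arms for Cep20 (1.11), Tnfsf12 (1.01), Slc45a1 (0.58), 4930544G11Rik (0.55), Mc4r (0.46), Olfr1093 (1.10), Hacl1 (1.24), D030028A08Rik (0.92) and Krt87 (0.55). The cause was not tested. Leaving out 1 array turned the sign for Tgfbr1 (-0.053 to 0.30), Spp1 (-0.27 to 0.11), S100a8 (-3.66 to 0.24), Pdgfra (-0.26 to 0.49), Cxcl1 (-0.94 to 0.031), Saa3 (-1.47 to 0.90), Pdgfrb (-0.040 to 0.28) and Fn1 (-0.17 to 0.93). For IR+Ly minus Ly alone, 15 of 1284 alternatives over 93 genes turned the sign, in 12 genes. Genes near background, such as Slc45a1 and Mc4r, are limited by signal over background.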

Other observations

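Genes linked to senescence, the lasting arrest of damaged cells, had a median of 0.33 over 21 members in the Ly arm, against 0.73 without drug; 5 were higher and 1 lower at an unadjusted p under 0.05, against 3.48% and 2.27% of all genes, and 0 passed in limma. The interaction median was -0.56, and -0.24 without IR 1. Cdkn2c, a cell cycle inhibitor, was at 2.06 and 1.75 in IR+Ly and 1.58 and 1.34 in Ly (0.44 ± 0.14; adjusted p = 0.539). Igfbp6, which binds IGF2, was the 1 lower member, at 3.48 and 2.99 in IR+Ly and 4.03 and 3.92 in Ly (-0.74 ± 0.24; adjusted p = 0.561). Endothelial markers had a median of -0.01 over 27 members, against -0.53 without drug. In limma 3 were higher and 3 lower at an unadjusted p under 0.05, against 3.48% and 2.27% of all genes. The endothelial interaction median was 0.44, and 0.20 without IR 1. Among these markers Vwf, the clotting factor carrier, lay at 0.48 ± 0.18, and Aplnr, the apelin receptor, at -0.90 ± 0.30.

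Clca1, a secreted protein of goblet cells, was at -2.45 and 3.66 in IR+Ly and at -6.41 and -2.69 in Ly (5.16 ± 2.36; adjusted p = 0.852 in limma), so the 2 arrays within each group lay far apart. Agr2, which folds mucins, was at -1.90 and -1.90 in IR+Ly and -3.46 and -2.60 in Ly (1.13 ± 0.49; adjusted p = 0.806).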
